A study of Mus musculus with 15 samples.

Results

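Primed CD4 T cells that had lost surface CD62L were compared with primed cells that had kept it, in Batf3-/- mice that received the cells. The comparison takes 6 of the 15 RNA-seq libraries of the series, 3 of CD62L- and 3 of CD62L+ cells, chosen by their titles, and covers every gene of the count table. The donor cells were naive CD45.1+ CD4 T cells of OT-II mice, which carry a transgenic T cell receptor for an ovalbumin (OVA) peptide presented on MHC class II. They were transferred into CD45.2+ Batf3-/- mice or into C57BL/6 (WT) mice. From 24 h after transfer, doses of OVA (60 µg) mixed with papain (30 µg), a protease that acts as an airway adjuvant, were given intranasally 3 times at intervals of several hours. On day 5 donor CD44hi cells were sorted by CD62L from the mediastinal lymph nodes, which drain the lung. The deletion was in the recipients, and the labels give the sequenced T cells no mutation of Batf3. The other 9 libraries were the same subsets from WT recipients, 3 each, and 3 of naive OT-II cells from untreated donors. The age and sex of the mice and the cells a Batf3-/- recipient still held are not given in the sources used here, and the labels tie no library to an animal. P-values here therefore measure the spread between libraries, which may be partly technical.

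CD62L is an adhesion molecule with which lymphocytes enter lymph nodes from the blood. Activated T cells lose it from the surface as they become effector cells, while central memory cells and their precursors keep it. Mice without the transcription factor BATF3 lack most type 1 conventional dendritic cells, which cross-present antigen and make interleukin 12. Within a draining node, CD4 T cells that become follicular helper (Tfh) cells express CXCR5, the receptor for the follicular chemokine CXCL13, and the repressor BCL6, and give B cells interleukin 21 and interleukin 4.

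Promoter sequences are shown for 5 genes described below, of which 3 (Padi4, Tigit and Il4) were higher and 2 (Dapl1 and Pus7) lower in CD62L- cells, so that the regions beside the measured transcripts can be read. Each runs 5′ to 3′ on the gene's strand from 250 bases before to 50 bases after the RefSeq start, in GRCm38.p6, the same assembly as the mm10 of the counts. Capitals mark the 6-letter E-box CACGTG and the motif TGANTCA, the usual letters bound by AP-1 and related bZIP factors. Padi4 is at chr4:140774154-140774453, minus strand, Tigit at chr16:43664135-43664434, minus strand, and Il4 at chr11:53618616-53618915, minus strand. Dapl1 is at chr2:59484403-59484702, plus strand, and Pus7 at chr5:23783662-23783961, minus strand.
Padi4: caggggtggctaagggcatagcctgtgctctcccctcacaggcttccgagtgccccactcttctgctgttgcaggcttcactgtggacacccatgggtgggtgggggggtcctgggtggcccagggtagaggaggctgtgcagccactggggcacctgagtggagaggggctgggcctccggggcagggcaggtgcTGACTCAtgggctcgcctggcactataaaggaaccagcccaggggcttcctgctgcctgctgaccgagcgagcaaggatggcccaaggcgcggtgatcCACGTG
Tigit: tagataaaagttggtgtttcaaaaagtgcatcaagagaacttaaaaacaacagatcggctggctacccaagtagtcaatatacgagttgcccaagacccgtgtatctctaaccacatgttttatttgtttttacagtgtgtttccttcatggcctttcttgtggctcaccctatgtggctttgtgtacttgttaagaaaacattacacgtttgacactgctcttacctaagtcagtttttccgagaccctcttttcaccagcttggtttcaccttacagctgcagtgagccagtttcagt
Il4: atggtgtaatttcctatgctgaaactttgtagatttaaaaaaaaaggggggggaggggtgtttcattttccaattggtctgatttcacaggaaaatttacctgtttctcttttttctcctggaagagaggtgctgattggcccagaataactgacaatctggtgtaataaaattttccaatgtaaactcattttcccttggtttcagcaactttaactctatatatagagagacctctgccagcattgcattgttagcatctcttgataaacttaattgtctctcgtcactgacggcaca
Dapl1: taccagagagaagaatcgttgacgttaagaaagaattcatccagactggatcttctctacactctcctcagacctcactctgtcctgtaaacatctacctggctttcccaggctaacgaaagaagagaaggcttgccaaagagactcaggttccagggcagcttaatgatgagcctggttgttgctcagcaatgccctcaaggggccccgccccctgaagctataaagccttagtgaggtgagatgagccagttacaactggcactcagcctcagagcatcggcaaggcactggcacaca
Pus7: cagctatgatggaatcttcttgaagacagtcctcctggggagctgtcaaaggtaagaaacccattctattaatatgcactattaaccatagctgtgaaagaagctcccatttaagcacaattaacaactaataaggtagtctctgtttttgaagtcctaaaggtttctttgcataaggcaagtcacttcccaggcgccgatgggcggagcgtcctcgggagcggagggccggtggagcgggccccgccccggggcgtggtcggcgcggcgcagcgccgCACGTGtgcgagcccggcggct

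The table of promoters had an entry for 38 of the 57 genes that were higher in CD62L- cells and 26 of the 43 that were lower. CACGTG, searched on both strands of these windows, was present for 8.09% of the 27025 genes in the table, not only those tested here. A gene was counted if any of its promoters in the table held the motif, and Il4 and Pus7 have 2 each. CACGTG was in 3 of the 38 (7.89%) and in 6 of the 26 (23.1%), the latter Ltv1, Ppa1, Hspd1, Pus7, Prmt1 and Mapkapk3. TGANTCA was in 8.97% of all genes of the table and in 6 of the 38 (15.8%), Padi4, P2rx7, Art2b, S100a11, Slc9a9 and Gbp2. It was in 1 of the 26 (3.85%), C1qbp. The pair can share end letters, but in the Padi4 window they do not. Of 4 other motifs searched the same way, GGGCGG was in 38.2% of all genes of the table, in 20 of the 38 and in 19 of the 26. CACCC was in 59.8%, 31 and 18. CAGCTG was in 18.3%, 10 and 5, and CAGGTG in 22.6%, 13 and 5. These matches describe letters in a window and were not tested.

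The 6 libraries held 70712711 to 89129489 counts over genes, and 19942 genes passed the filter on low counts. Values below are CPM, counts relative to the TMM-scaled library size, fold changes are log2 values of CD62L- minus CD62L+ cells with their standard error (SE) from edgeR, and a gene passed at an adjusted p below 0.05. T cell identity genes summed to 24180 to 25129 CPM in the CD62L- and 22741 to 23982 CPM in the CD62L+ libraries, and none of the 16 passed. B cell genes were also detected, and the 18 markers summed to 44.4 to 59.6 CPM in CD62L- and 174 to 235 CPM in CD62L+ libraries, against 65.3 to 76.5 CPM in naive cells. The 13 tested dendritic cell and macrophage markers summed to 32.1 to 35.7 and 29.3 to 31.3 CPM with none passing, and Clec9a and Fcgr1 had no count in any of the 6. Mitochondrial transcripts took 1.65 to 2.20% of counts in CD62L- and 0.764 to 1.58% in CD62L+ libraries, without overlap. Counts at ribosomal RNA loci took 3.86, 10.4 and 16.7% of the 3 CD62L- libraries and 5.26 to 9.51% of the CD62L+ ones. The part of these shares in the results below was not tested. In bulk RNA, fewer cells of a type and less RNA per cell cannot be told apart.

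Of 19942 genes tested, 100 (0.501%) differed between CD62L- and CD62L+ cells by edgeR's quasi-likelihood test. In CD62L- cells 57 (0.286%) were higher and 43 (0.216%) lower, while the median log2 fold change of all genes tested was 0.0076. A difference of at least 2-fold was seen for 49 of them, 32 higher and 17 lower. All 3 values of one group lay above all 3 of the other for each of the 100 genes. Over all genes tested such a separation was seen for 6.44% upwards and 6.94% downwards. Scaling by library totals without TMM factors gave 35 higher and 40 lower genes. Refitting without 1 of the 6 libraries lowered the number to between 32 and 51, the lowest without CD62L+ replicate 2. Of the 100 genes, 27 (17 higher, 10 lower) passed in each of these 6 fits and 33 in none. A gene described below as passing in every such fit belongs to the 27. Fitted alone, the 6 libraries gave 26 calls, 24 of them among the 100. These held Cxcr5, Sostdc1, Tigit, Padi4, Sccpdh, S100a11, Matk, H2-Q2, Dapl1, Cd79a and Cd74, but not Bcl6, Il21, Il4, Coro2b, Art2b or a gene of ribosome biogenesis. Of the 57 higher genes, 14 averaged under 1 CPM in naive cells.

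**Figure D1:**
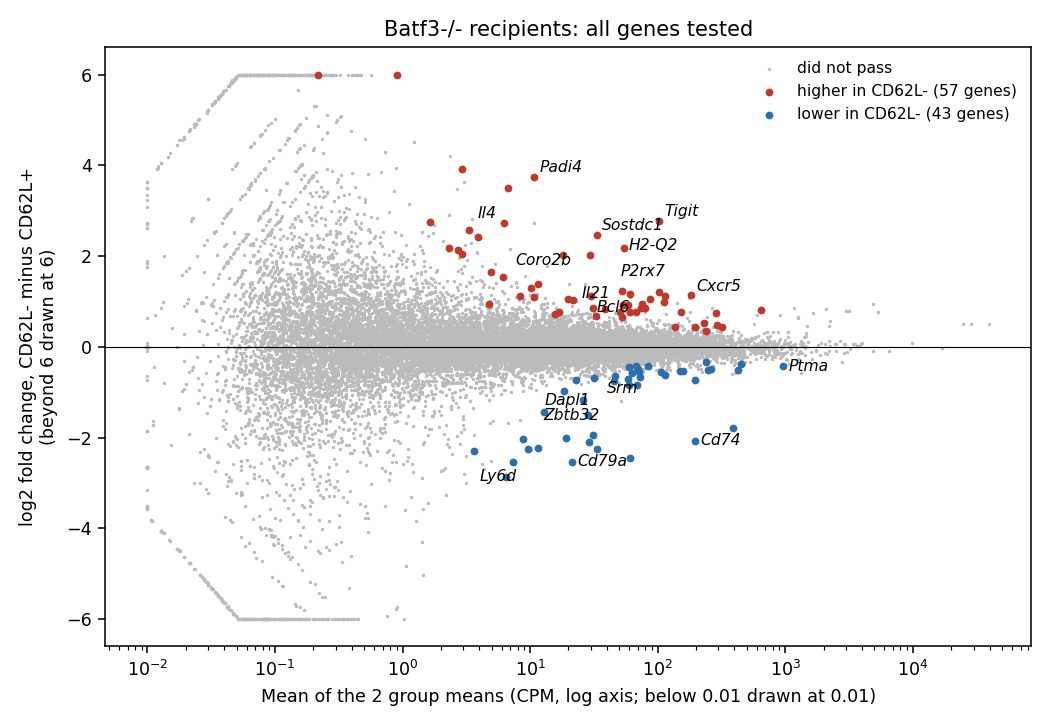
Log2 fold change (CD62L- minus CD62L+ cells, Batf3-/- recipients) of all 19942 genes tested against their mean level in CPM on a log axis. Red points are the 57 genes that were higher and blue points the 43 that were lower. The Tfh genes that passed lie above the line, and the B cell and MHC class II genes that passed lie far below it.

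Cd44, the adhesion receptor by which both subsets were gated as primed, was at 156, 194 and 222 CPM in CD62L- cells and at 150, 153 and 157 CPM in CD62L+ cells, against 24.2 CPM in naive cells. Those groups overlapped and the adjusted p was 0.657.

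Of 22 listed genes of Tfh cells, all tested, 6 passed, all of them higher in CD62L- cells (Cxcr5, Bcl6, Il21, Ascl2, Il4 and Sostdc1). Of all genes tested, 0.286% passed as higher. The list's median log2 fold change was 0.31 and 16 members were above 0, where 51.0% of all genes were. Cxcr5, the receptor that guides T cells to the follicle, was at 272, 236 and 247 CPM in CD62L- and at 121, 108 and 114 CPM in CD62L+ cells. The groups were far apart, and both were well above the naive mean of 3.86 CPM. The log2 fold change was 1.14 (SE 0.10, adjusted p = 6.3e-05), and it passed in every fit that left out a library. Bcl6, the repressor that directs Tfh differentiation, stood at 103, 90.6 and 90.7 against 53.8, 47.5 and 55.7 CPM, a log2 fold change of 0.86 (SE 0.12, adjusted p = 0.00441). It too passed in every such fit.

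The cytokines of the same programme followed. Il21, which acts on germinal centre B cells, was at 88.3, 86.2 and 75.9 CPM in CD62L- cells and at 36.2, 31.9 and 43.4 CPM in CD62L+ cells, and close to 0 in naive cells. Its log2 fold change was 1.17 (SE 0.17, adjusted p = 0.00667). Without CD62L+ replicate 2 the adjusted p rose to 0.0607, the highest of the 6 fits, whose lowest was 0.0145. The model Gm12534, which lies on the opposite strand within Il21, also passed, and its reads cannot be told from those of Il21. Il4, the cytokine of both Th2 and Tfh cells, was at 13.3, 11.4 and 8.06 CPM against 1.89, 2.05 and 0.978 CPM, so that the lowest CD62L- library was well above the highest CD62L+ one. The log2 fold change of 2.73 (SE 0.34, adjusted p = 0.00166) held in every fit that left out a library.

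Sostdc1, a secreted protein that blocks BMP and Wnt ligands and is made by Tfh cells, was at 67.8, 53.4 and 48.4 CPM in CD62L- cells. In CD62L+ cells it was at 11, 10.6 and 8.95 CPM, and in naive cells it was almost undetected. The groups were separated by a wide gap, with a log2 fold change of 2.47 (SE 0.22, adjusted p = 6.83e-05) that passed in every such fit. Ascl2, a basic helix-loop-helix factor able to start the Tfh programme, had 444 counts over the 3 CD62L- libraries (2.29, 1.71 and 1.39 CPM) and 0 counts in each CD62L+ library. Against a floor of 3 counts over the group it was at least 142-fold higher (adjusted p = 0.0207). This call was lost in 5 of the 6 fits that left out a library, all except the one without CD62L- replicate 3, with adjusted p between 0.0493 and 0.0852.

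The other 16 listed Tfh genes did not pass, and 6 of them had a negative log2 fold change. Pdcd1, which encodes the inhibitory receptor PD-1, was at 327, 283 and 248 against 255, 217 and 191 CPM with overlapping groups (adjusted p = 0.924). At each replicate number its CD62L- value was the higher. Tox2, a nuclear factor of Tfh cells, was at 158, 245 and 310 against 83.6, 118 and 133 CPM, without overlap (adjusted p = 0.28). Maf was likewise separated, at 121, 127 and 148 against 92.8, 92.2 and 95.7 CPM (adjusted p = 0.305). Icos, a costimulatory receptor, ranged from 478 to 616 CPM in CD62L- and from 513 to 721 CPM in CD62L+ cells. Irf4, a transcription factor induced by T cell receptor signalling, was separated the other way, at 88.4, 102 and 119 against 150, 142 and 147 CPM (log2 fold change -0.50, SE 0.17, adjusted p = 0.336). Cd200 was at 469, 404 and 352 against 642, 521 and 441 CPM, with overlapping groups but lower in CD62L- cells at each replicate number.

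**Figure D2:**
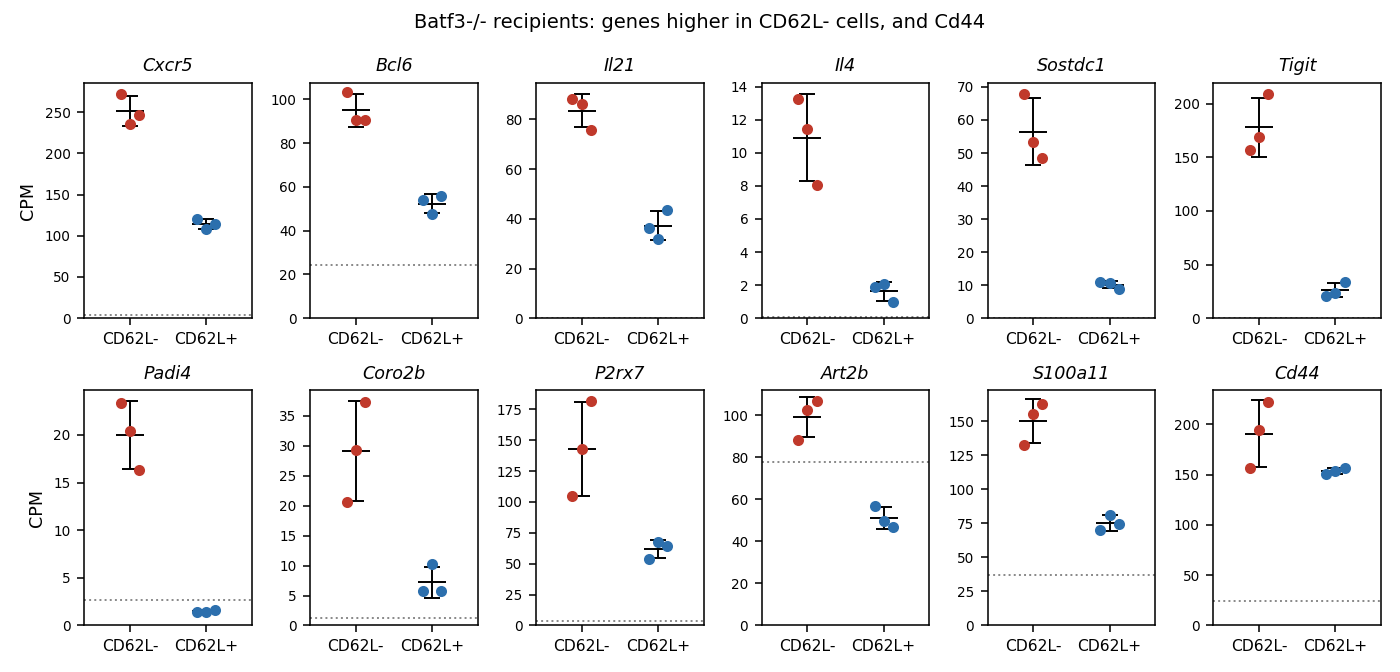
CPM of 12 genes in the 3 CD62L- (red) and 3 CD62L+ (blue) libraries from Batf3-/- recipients, with the mean and SD as bars and the naive mean as a dotted line. The groups do not overlap for any gene except Cd44, and Cxcr5, Il21, Sostdc1 and Tigit were near 0 in naive cells.

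Among 11 listed inhibitory receptors, Tigit and Cd160 were higher in CD62L- cells and none passed as lower, against 0.286% and 0.216% of all genes. Of the 11, 6 had a negative log2 fold change, and the list median was -0.02. Entpd1, which encodes the ectonucleotidase CD39, had lower values in all 3 CD62L- libraries (2.43, 1.43 and 0.755 against 4.49, 4.12 and 4.63 CPM) without passing (adjusted p = 0.633). Tigit, a receptor for the poliovirus receptor CD155, was at 157, 169 and 209 CPM in CD62L- cells and at 21.1, 23.4 and 33.4 CPM in CD62L+ cells, with 0.474 CPM in naive cells. The gap exceeded the spread in either group, and the log2 fold change was 2.78 (SE 0.27, adjusted p = 0.000165), passing in every fit that left out a library. Cd160, a receptor for HVEM, was at 40.2, 45.4 and 38.6 against 16, 21.4 and 19.9 CPM, a log2 fold change of 1.11 (SE 0.21, adjusted p = 0.0274). Each fit that left out 1 library lost the call of Cd160, with adjusted p from 0.0663 to 0.145. Cd160 overlaps Pdzk1 on the opposite strand, which the counts do not separate.

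The other polarised programmes showed few calls. Besides Il4, none of the 12 tested Th2 genes passed, and Il5 and Il13 had no count in the 6 libraries. Gata3, the factor that directs Th2 cells, was at 337, 276 and 342 CPM in CD62L- and at 336, 320 and 395 CPM in CD62L+ cells (adjusted p = 0.966). None of 18 Th1 and cytotoxic genes passed, with a median of 0.43. Ifng was at 4.98, 8.28 and 5.14 against 2.72, 2.45 and 2.26 CPM, separated but with an adjusted p of 0.115, and Tbx21, which encodes T-bet, was under 4 CPM throughout. None of 10 Th17 genes and 1 of 14 regulatory T cell genes passed, Nrp1. Foxp3, the regulatory T cell factor, was at 7.74 to 10.7 CPM and 9.35 to 10.1 CPM in the 2 subsets.

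The largest fold changes included genes outside these programmes. Padi4, a peptidylarginine deiminase that converts arginine to citrulline in histones and other proteins, was at 23.4, 20.4 and 16.3 CPM in CD62L- cells. In CD62L+ cells it was at 1.45, 1.43 and 1.59 CPM, below the naive mean of 2.71 CPM. The 2 subsets thus lay on either side of naive cells, and the log2 fold change was 3.75 (SE 0.34, adjusted p = 9.17e-05), passing in every fit that left out a library. Among the 5 genes of its family Padi4 was the only one to pass. Its window, printed above, is one of 3 among the higher genes that hold CACGTG. There the motif is at the very end of the window, after the RefSeq start and not before it.

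Sccpdh, at 55.3, 48.9 and 38.1 against 8.89, 12.5 and 13.6 CPM, and Coro2b, an actin-binding coronin, at 20.6, 29.4 and 37.3 against 5.71, 10.2 and 5.68 CPM, both rose about 4-fold. Their log2 fold changes of 2.02 (SE 0.24) and 2.01 (SE 0.27) held in every fit that left out a library, and both genes averaged under 2 CPM in naive cells. Coro2b was the only one of 6 tested coronins to pass. S100a11, a calcium-binding protein, was at 132, 155 and 163 against 70.1, 81.1 and 74.5 CPM (log2 fold change 1.0, SE 0.10, adjusted p = 0.000367). The migration and cytoskeleton list held no other call among its 25 genes and had a median of -0.03. Matk, a kinase that inhibits Src family kinases, was at 80.2, 64.9 and 75.3 against 29.6, 32.3 and 31.8 CPM (log2 fold change 1.23, SE 0.17), and it also passed in each of those fits.

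A pair of genes of extracellular nucleotide sensing was higher together. P2rx7 encodes the ATP-gated channel P2X7, and Art2b encodes a surface enzyme that on mouse T cells can open that channel by ADP-ribosylation with NAD. P2rx7 was at 105, 143 and 181 CPM in CD62L- cells and at 53.8, 68 and 64.6 CPM in CD62L+ cells, against 3.64 CPM in naive cells. The log2 fold change was 1.20 (SE 0.19, adjusted p = 0.0105), and it was lost without CD62L+ replicate 1, 2 or 3 (highest adjusted p 0.0716, lowest of the 6 fits 0.00248). Art2b was at 88.5, 102 and 107 against 57, 49.7 and 47.1 CPM, with the naive mean of 77.9 CPM between the groups. Its log2 fold change was 0.95 (SE 0.12, adjusted p = 0.00128) and passed in every such fit. The neighbouring pseudogene Art2a-ps, a close copy of Art2b, was at 6.10, 6.49 and 4.02 against 0.349, 0.129 and 0.610 CPM, and reads could be shared between the copies. In a group of 8 genes of this pathway, chosen after the values were seen, these were the 3 that passed, against 0.286% higher over all genes.

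Genes of antigen presentation and of the interferon-γ response also appeared. H2-Q2, a class Ib MHC gene of the Qa region, was at 89.4, 83.0 and 93.1 CPM in CD62L- and at 19.5, 19.0 and 20.2 CPM in CD62L+ cells. The replicates were tight, the log2 fold change was 2.18 (SE 0.11), and its adjusted p of 2e-07 was as low as any in the comparison. The Qa genes are near-identical in parts, so reads could be split among them, and none of the other 5 tested passed. Classical class I genes were at like levels in both subsets, H2-K1 at 3250 to 3716 and 3019 to 3534 CPM. Tap1, a subunit of the peptide transporter, was at 319, 388 and 394 against 279, 280 and 260 CPM (log2 fold change 0.43, SE 0.08, adjusted p = 0.0365). It overlaps Psmb9 on the opposite strand, and the call was lost in 5 of the 6 fits that left out a library.

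Among 15 interferon-inducible GTPases, a set chosen after the values were seen, 14 had a positive log2 fold change, and Gbp2 and Tgtp2 passed. Of all genes tested, 51.0% were above 0 and 0.286% passed as higher. Tgtp2 was at 216, 140 and 115 CPM against 91.1, 68.9 and 57.3 CPM, and both subsets lay far below the naive mean of 1082 CPM. The call of Tgtp2 (log2 fold change 1.12, SE 0.23, adjusted p = 0.0469) was lost in 5 of the 6 fits without a library, as was that of Gbp2 in 4, and scaling by library totals ended the calls of Tap1, Gbp2 and Tgtp2. None of the 24 genes of the type I interferon list passed, although 20 were above 0 (median 0.27).

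Several further higher genes act in metabolism and signalling. Egln3, a prolyl hydroxylase that marks hypoxia-inducible factors for decay, was at 29.1, 28.7 and 29.6 against 15.1, 14.9 and 12.9 CPM. Aldoc, an aldolase of glycolysis, was at 16, 20.3 and 14.1 against 4.71, 6.92 and 7.52 CPM. The glycolysis list itself had 0 calls among 17 genes and a median of 0.02. The call of Egln3 was lost in all 6 fits that left out a library (adjusted p 0.0778 to 0.146) and that of Aldoc in 5. Pde2a and Pde3b, which break down cyclic nucleotides, passed among 13 tested phosphodiesterases, against 0.286% higher over all genes. Their log2 fold changes were 1.06 (SE 0.18) and 0.85 (SE 0.17), and neither passed in every such fit. Dck, the kinase that salvages deoxycytidine, was at 184, 192 and 197 against 119, 99.7 and 117 CPM (log2 fold change 0.77, SE 0.10, adjusted p = 0.00291) and passed in each of them.

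Loci listed under the 7SL RNA, the RNA of the signal recognition particle, accounted for 6 of the 57 higher calls. Rn7s1, Rn7s2 and Gm24447 passed, as did 3 gene models that lie inside the first pair. Reads of near-identical copies cannot be assigned to 1 locus. How close Gm24447 is in sequence to the other copies was not tested. Gm24447 was at 7.62, 9.06 and 20.2 CPM in CD62L- cells and at 1.29, 0.786 and 1.19 CPM in CD62L+ cells. CD62L- replicate 3, the library with the largest share of ribosomal RNA, stood far above the others. The mitochondrial share of counts was higher in the same subset, as given above.

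The lower genes included some of lymphoid homing and quiescence. Of 20 tested, 2 passed, both lower and Dapl1 among them, where 0.216% of all genes were lower. Groups were separated downwards for 6 of the 20 and upwards for 1, against 6.94% and 6.44% of all genes. The list's median was -0.21. Dapl1 was at 15.6, 16.8 and 15.1 CPM in CD62L- cells and at 39.1, 36.2 and 32.2 CPM in CD62L+ cells, the latter close to the naive mean of 35.1 CPM. The tight groups gave a log2 fold change of -1.18 (SE 0.13, adjusted p = 0.000588), which passed in every fit that left out a library. Ccr7, the receptor that leads T cells into the paracortex, was at 717, 1030 and 1474 against 1059, 1472 and 2304 CPM, with overlapping groups (adjusted p = 0.613). At each replicate number its CD62L- value was the lower, a pairing the main test does not use. S1pr1, the receptor for exit from lymph nodes, was at 184, 174 and 153 against 225, 241 and 223 CPM, separated but with an adjusted p of 0.306.

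Further genes of this list went the other way or did not differ beyond the spread. Tcf7, which encodes TCF-1, a factor of memory and Tfh precursors, was at 1759, 1571 and 1497 CPM in CD62L- and at 1361, 1340 and 1225 CPM in CD62L+ cells (adjusted p = 0.296). Klf2, an activator of S1pr1, ranged from 72.4 to 111 and from 67.2 to 164 CPM. Il7r, the receptor for interleukin 7, ranged from 13.7 to 21.2 and from 15.7 to 19.1 CPM, in both subsets far below the naive mean of 237 CPM.

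Outside the B cell and antigen-presentation lists, 30 genes were lower in CD62L- cells, 4 of them at least 2-fold. These included Zbtb32, Dapl1 and Mir5107, the last of which lies inside Cd74 and shares its reads. Zbtb32, a transcriptional repressor, was at 12.4, 15.6 and 16 CPM in CD62L- cells and at 45.6, 43.2 and 36.4 CPM in CD62L+ cells, with 0.383 CPM in naive cells. Its log2 fold change was -1.51 (SE 0.25, adjusted p = 0.0161), and the call was lost without CD62L- replicate 1 or 2 or CD62L+ replicate 1 or 2 (adjusted p 0.0358 to 0.0766 over the 6 fits). Nrp1, a co-receptor for semaphorins that marks many regulatory T cells, was at 135, 139 and 166 against 216, 239 and 273 CPM, with a naive mean of 10.8 CPM. Its log2 fold change was -0.72 (SE 0.12, adjusted p = 0.0207), and 4 of the 6 fits without a library lost the call. Nrn1, which encodes neuritin, was at 44.4, 50.9 and 52.6 against 90.9, 93.7 and 79.6 CPM and was almost undetected in naive cells. All 6 such fits lost the call of Nrn1 (adjusted p 0.0783 to 0.17). Rasgrp2, an activator of the integrin regulator Rap1, was at 37.5, 43.3 and 52.9 against 66.6, 75.9 and 76.2 CPM, with both subsets below the naive mean of 258 CPM, and 5 of those fits lost its call.

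**Figure D3:**
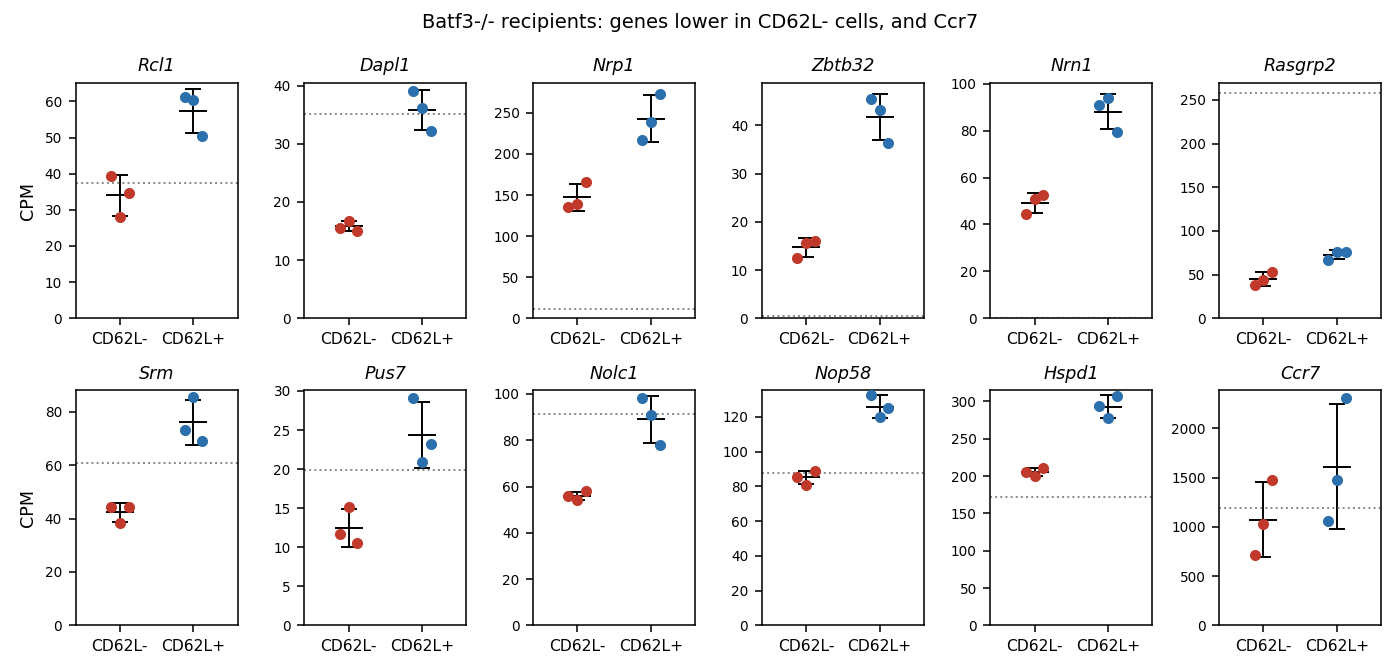
CPM of 12 genes in the 3 CD62L- (red) and 3 CD62L+ (blue) libraries from Batf3-/- recipients, with mean and SD as bars and the naive mean as a dotted line. Every gene except Ccr7 has separated groups, and Zbtb32, Nrp1 and Nrn1 were lower in naive cells than in either subset.

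Among 20 listed genes of ribosome biogenesis and polyamine synthesis, 4 passed, all lower, each by less than 2-fold. Of all genes tested, 0.216% passed as lower. All 20 had a negative log2 fold change (median -0.39), and the 4 that passed were Srm, Nolc1, Dkc1 and Nop58. Groups were separated downwards for 12 of the 20, against 6.94% of all genes. The summed level of all 20 listed genes was 2597 to 2763 CPM in CD62L- and 3403 to 3641 CPM in CD62L+ cells. Srm, which makes spermidine, was at 44.4, 38.2 and 44.4 against 73.1, 85.5 and 69.1 CPM, a log2 fold change of -0.84 (SE 0.14, adjusted p = 0.0185). Nolc1, a nucleolar chaperone of small nucleolar ribonucleoproteins, was at 55.8, 54.1 and 57.8 against 98.2, 90.9 and 78.1 CPM (log2 fold change -0.67, SE 0.11). Dkc1, the pseudouridine synthase of box H/ACA particles, was at 100, 87.0 and 82.1 against 144, 132 and 137 CPM. Its partner Nhp2, at 52.1, 51.0 and 49.7 against 77.4, 80.4 and 70.5 CPM, also passed. Nop58, a core protein of box C/D particles, was at 85.3, 81.0 and 88.9 against 133, 120 and 125 CPM (log2 fold change -0.56, SE 0.09).

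Enzymes that modify or process RNA were among the lower genes as well. Pus7, a pseudouridine synthase, was at 11.7, 15.1 and 10.5 against 29.1, 20.9 and 23.2 CPM, with a log2 fold change of -0.97 (SE 0.19, adjusted p = 0.0366). Rcl1, which acts in maturation of the small ribosomal subunit, was at 39.3, 27.9 and 34.8 against 61.2, 60.3 and 50.3 CPM, and Ltv1, an assembly factor of the same subunit, was at 31.4, 37.4 and 39.7 against 59.6, 53.7 and 55.9 CPM. Ctps, which makes CTP, fell by 0.73 on the log2 scale (SE 0.14). Myc, a transcription factor whose known targets include many of these genes, was at 70.9, 70.9 and 80.3 against 95.3, 99.3 and 111 CPM, separated but with an adjusted p of 0.194. None of these calls passed in every fit that left out a library: Srm, Nop58 and Rcl1 passed in 2 of 6, Nolc1, Dkc1, Nhp2, Pus7 and Ctps in 1, and Ltv1 in 0. Scaling by library totals ended the calls of Dkc1, Nhp2, Rcl1 and Ctps. Ribosomal protein genes took 3.39 to 3.87% of counts in CD62L- and 3.80 to 4.29% in CD62L+ libraries, overlapping.

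Of 20 listed chaperones, Hspa9, Hspd1 and Cct3 passed, all lower, where 0.216% of all genes were lower. Of the 20, 16 had a negative and 4 a positive log2 fold change, and the median was -0.23. Hspd1, the mitochondrial chaperonin, was at 206, 200 and 211 CPM in CD62L- and at 294, 278 and 307 CPM in CD62L+ cells (log2 fold change -0.51, SE 0.09, adjusted p = 0.0222), with overlapping Hspe1 on the other strand at 55.2 to 72.5 and 82.7 to 99.1 CPM (adjusted p = 0.187). Hspa9, the mitochondrial HSP70, was at 123, 124 and 143 against 191, 180 and 191 CPM. All 8 subunits of the cytosolic chaperonin CCT, a set chosen after the values were seen, had separated groups and negative log2 fold changes between -0.36 and -0.21. Of all genes tested, 6.94% were separated downwards. Cct3 alone of the 8 passed (adjusted p = 0.0469). The calls of Hspd1 and Cct3 were lost in all 6 fits that left out a library, and that of Hspa9 in 5. Oxidative phosphorylation genes (21) had no call and a median of -0.08, and the 20 G1/S and 20 G2/M genes had none, with medians of -0.02 and -0.09.

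**Figure D4:**
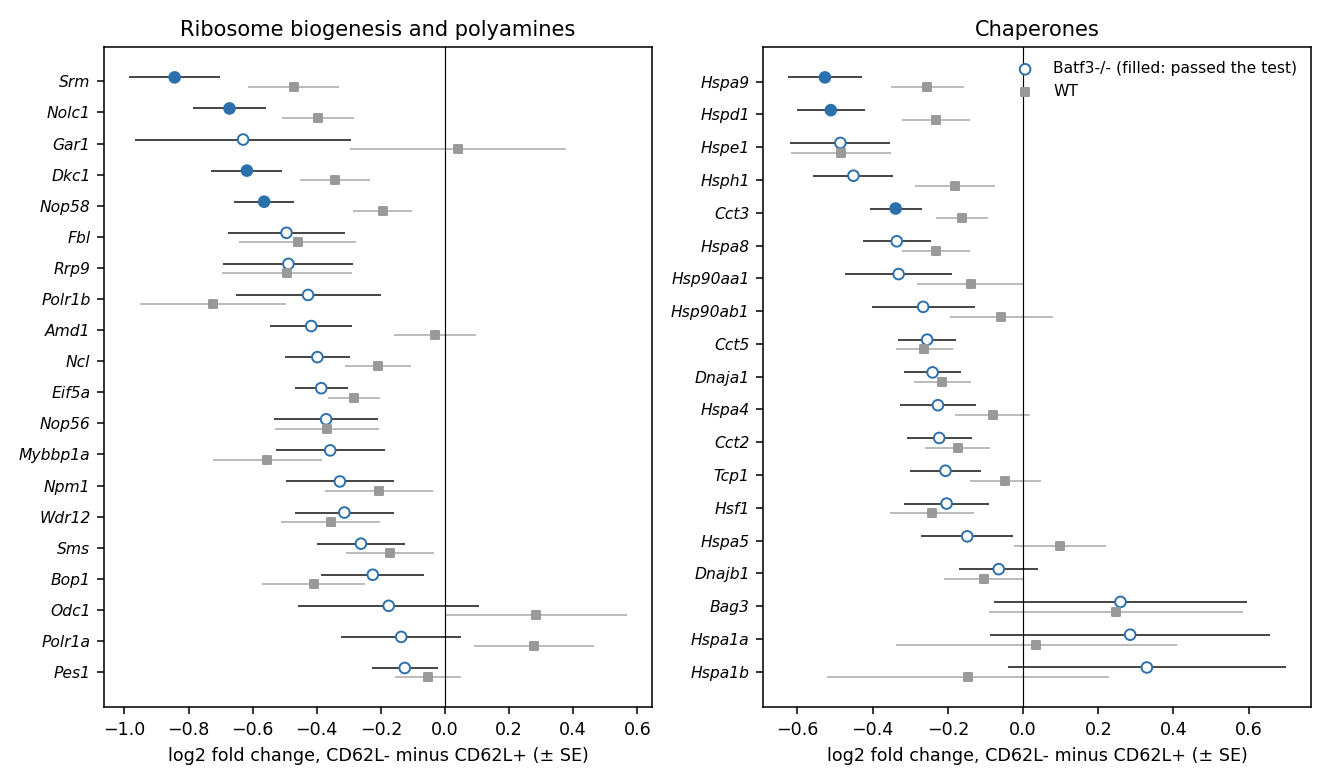
Log2 fold change (CD62L- minus CD62L+) with SE of listed ribosome biogenesis and polyamine genes and of listed chaperones in Batf3-/- (circles, filled where the test was passed) and WT recipients (grey squares). Hspb1 is left off the right panel because of its wide error. All 20 circles in the left panel lie below 0.

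B cell and antigen-presentation genes made up 13 of the 43 lower calls. All 18 B cell markers had a negative log2 fold change (median -2.12), 14 had separated groups, and 7 passed, among them Cd79a, Cd79b, Ms4a1, Fcmr, Ly6d and Spib. Of all genes tested, 6.94% were separated downwards and 0.216% passed as lower. Cd79a, a signalling chain of the B cell receptor, was at 5.47, 6.39 and 7.03 CPM in CD62L- and at 29.8, 35.9 and 43.9 CPM in CD62L+ cells, with 11.7 CPM in naive cells. Its log2 fold change of -2.54 (SE 0.20, adjusted p = 3.51e-05) held in every fit that left out a library. Of 10 MHC class II genes, Cd74, H2-Aa, H2-Ab1 and H2-Eb1 passed, and of 12 immunoglobulin and plasma cell genes, Ighd and Iglc2. Cd74, the invariant chain, was at 84.6, 83.5 and 58.7 against 291, 315 and 349 CPM (log2 fold change -2.07, SE 0.18, adjusted p = 6.3e-05). Ly6d was lost without CD62L- replicate 1 and Fcmr without CD62L- replicate 2, while Iglc2, Spib and Ms4a1 did not pass in any fit without a library and Cd79b in 1. The donor cells were sorted as CD45.1+ CD4 T cells. The part of these transcripts in the other differences was not tested.

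The same contrast in WT recipients compares a separate set of 3 and 3 libraries, but it was tested in the same fit of all 15 libraries. Its calls thus also depend on the Batf3-/- libraries, and ranged from 201 to 271 with 1 of those left out. The overlap below is therefore not an independent replication. In WT recipients 244 genes (1.22%) differed, 134 (0.672%) higher and 110 (0.552%) lower in CD62L- cells. Of the 100 genes of the Batf3-/- comparison, 68 passed in the same direction in WT recipients, 44 higher and 24 lower. That is 68% of the Batf3-/- calls and 27.9% of the WT calls. The other 32 (13 higher, 19 lower) had a WT estimate of the same sign. Of the 176 genes that passed in WT recipients without passing in Batf3-/- ones, 172 had estimates of the same sign in both. The share of same-sign estimates over all genes tested is not given, so whether these counts exceed it was not tested. Of the 30 lower genes outside the B cell and antigen-presentation lists, 12 were also lower in WT recipients. All 6 Tfh genes have a positive estimate there too, with log2 fold changes of 1.32 (SE 0.10) for Cxcr5, 1.23 (SE 0.12) for Bcl6 and 1.97 (SE 0.18) for Il21, while Ascl2 did not pass.

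**Figure D5:**
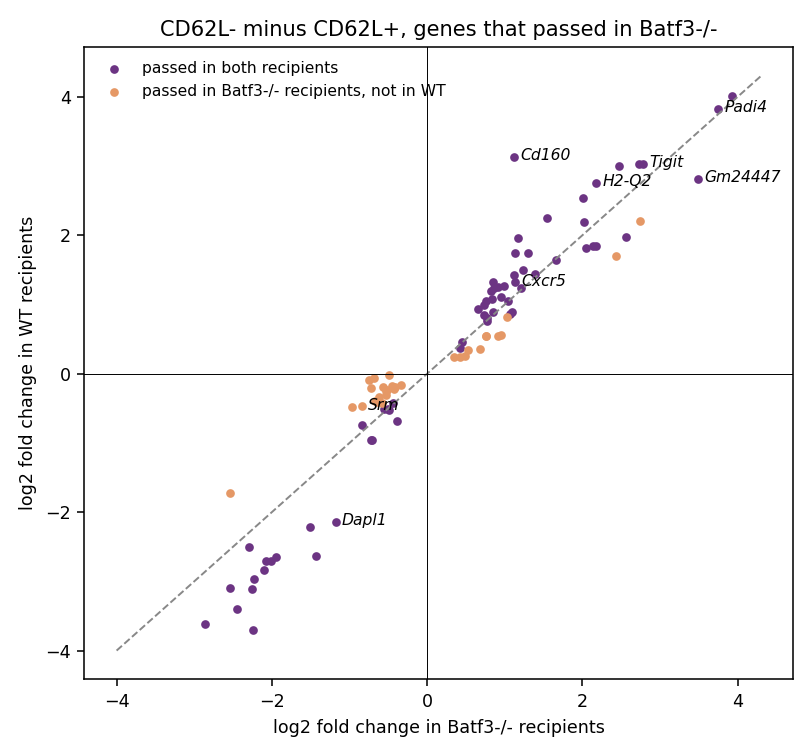
Log2 fold change (CD62L- minus CD62L+) in WT recipients against that in Batf3-/- recipients for the genes that passed in Batf3-/- recipients, leaving out Ascl2 and Mei1, which had no counts in CD62L+ cells, and 2 genes not reported here. Purple genes passed in both, orange ones in Batf3-/- recipients and not in WT, and the dashed line marks equal values. All plotted genes have the same sign on both axes.

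No gene (0%) passed the test of the difference between the 2 recipients, the interaction of subset and recipient, in edgeR, and 860 of 19942 had an unadjusted p below 0.05. DESeq2 called 36 genes and limma's voom 1. Genes that passed in 1 recipient are thus not shown to differ between recipients. Cd160 came nearest among the genes named here. In CD62L- cells it was at 38.6 to 45.4 CPM from Batf3-/- and at 73.5, 86.4 and 87.5 CPM from WT recipients. In CD62L+ cells it was at 16 to 21.4 CPM from Batf3-/- and at 6.44, 10.6 and 11.2 CPM from WT recipients. The subset difference was thus 1.11 in Batf3-/- and 3.13 in WT recipients on the log2 scale, a difference of -2.02 (SE 0.29, adjusted p = 0.135). It was the gene called by voom, with an adjusted p of 0.00743, and its interaction also passed without the filter (0.0402) and with library totals (0.0435).

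Dapl1 also differed less between the subsets in Batf3-/- recipients, without passing. It had an interaction of 0.96 (SE 0.19, adjusted p = 0.426), with WT CD62L- levels of 7.03, 7.30 and 9.16 CPM against the 15.1 to 16.8 CPM given above. The summed level of B cell markers in CD62L- cells was 27.7 to 30.4 CPM from WT recipients, below the 44.4 to 59.6 CPM from Batf3-/- recipients. Il21 had an interaction of -0.80 (SE 0.24, adjusted p = 1).

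Subset differences of biogenesis genes were not shown to differ between recipients. Srm differed by -0.84 (SE 0.14) in Batf3-/- and by -0.47 (SE 0.14) in WT recipients, an interaction of -0.37 (SE 0.20, adjusted p = 1). The median of the 20 ribosome biogenesis and polyamine genes was -0.31 in WT recipients, where none of them passed. Rcl1 had a WT estimate of -0.09 (SE 0.14), with an interaction of -0.67 (SE 0.20, adjusted p = 1). Padi4 (3.75 and 3.83), Art2b (0.95 and 1.11) and P2rx7 (1.20 and 1.24) had log2 fold changes in Batf3-/- and WT recipients that differed by less than the SE of that difference, and each passed in both.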

How the data were processed

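RNA of the sorted cells was extracted with a column kit, amplified over 13 cycles and tagmented by a transposase, per the labels' protocols. The submitters' processing notes name the build mm10 and the tools STAR 2.7.3a, Subread 1.6.5 (featureCounts), Trimmomatic 0.36 and FastQC. The authors deposited raw counts per gene for 49492 genes, not normalized, with exon positions and summed exon length. Of the symbols 47240 matched GENCODE M21. Overlapping genes share counts (28 of the 100 calls), and strand is not known to be used.

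All 15 libraries were fitted with a term per group in edgeR 4.0.16 (R 4.3.3), with filterByExpr at 10 counts, TMM factors, robust quasi-likelihood F tests and Benjamini-Hochberg adjustment at 0.05. Alternatives used limma 3.58.1, DESeq2 1.42.0, RLE factors, other filters, fewer libraries and a replicate block. SE is the log2 fold change over the root of F. Floors cover counting error only. Replicates of a group differed by a chi-square per degree of freedom of 62.7 to 642, so none was a duplicate.

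Named genes were preset transcription factors, receptors and cytokines, the 12 largest called changes per direction (at least 5 CPM, groups apart), the 12 largest decreases outside B cell lists, the 2 most significant called members per list and the 5 most abundant called genes per direction. Others named were chosen after their values were seen. A few results are not reported here. The members, lists and tests were chosen with earlier results of these data known. On simulated counts (19234 genes), 66 of 100 genes changed 2-fold and 85 of 100 changed 4-fold were recovered, with 6 false calls among 19034. The changed genes were drawn only from those above a minimum CPM, so recovery of genes with low counts was not simulated. All groups otherwise had the same mean, and libraries were drawn independently with no effect of replicate number.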

Additional observations from a re-analysis of the deposited data

How the results depend on the processing

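The 100 calls became 100 with RLE factors, 98 with upper quartile factors, 75 with library totals, 91 without the filter and 113 with a stricter one. They became 432 with DESeq2 (all of the 100 included), 335 with voom (99), 26 with the 6 libraries fitted alone (24) and 55 without the third CD62L- library of both recipients (50). Leaving out 1 library gave 32 to 51. The latter settings have fewer samples, and for the larger counts the cause was not tested. Library totals and upper quartiles were chosen after seeing the data. The 244 WT calls became 824 with DESeq2 and 476 with voom, and ranged from 201 to 271 with 1 Batf3-/- library left out. The 0 interaction calls became 36 with DESeq2, and 1 without the filter, with library totals and with voom (Cd160 in each). They became 2 without the third CD62L- libraries, and ranged from 0 to 2 with 1 library left out. Mex3a was among the 2 in both settings.

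With a replicate block in the fit of all 15 libraries, calls rose to 197 (99 of the 100), 529 in WT recipients and 1 interaction, and in the 6 libraries alone they fell to 18. Same-numbered Batf3-/- libraries had deviations correlated at 0.035 to 0.111, not all over the threshold of 0.1 used here, so the main fit does not take the numbers as pairs. All 6 correlated best with their own number. Some sums followed the number in both subsets. Early T cell receptor response genes summed to 4725, 7681 and 9975 CPM in CD62L- replicates 1 to 3. In CD62L+ replicates they summed to 4818, 7984 and 9542 CPM. Erythroid genes did not follow it (40.0, 11.9 and 51.2 against 13.2, 38.2 and 19.9 CPM). What the numbers stand for is not given, and spread shared by number is part of the main fit's error.

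Of the named genes, 4 uncalled ones changed the sign of their log2 fold change. Cd4 was at -0.023 with library totals, at -0.084 without the third CD62L- libraries, and between -0.074 and 0.13 with 1 library left out. With 1 library left out, Prdm1 ranged from -0.72 to 1.88, Klf2 from -0.50 to 0.21 and Il7r from -0.34 to 0.0048.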

Other observations

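Rnaset2a and Rnaset2b, near-identical genes for a lysosomal ribonuclease between which reads can be split, passed as higher in CD62L- cells. Rnaset2b kept its call in 1 of the 6 fits that left out a library (adjusted p 0.0159 to 0.0878), and scaling by library totals ended the calls of both. Rnaset2a was at 967, 795 and 729 CPM in CD62L- and at 481, 450 and 481 CPM in CD62L+ cells (log2 fold change 0.82, SE 0.11, adjusted p = 0.00404 by edgeR), with a naive mean of 376 CPM. Grn, which encodes the lysosomal protein progranulin, was at 74.3, 70.5 and 63.6 against 40.5, 33.8 and 36.1 CPM (adjusted p = 0.00676), and Slc9a9, an endosomal sodium and proton exchanger, was at 112, 104 and 137 against 60.5, 60.5 and 49.8 CPM (adjusted p = 0.0014). Grn lost its call without CD62L+ replicate 2 (adjusted p 0.0145 to 0.0592 over the same 6 fits). These genes were chosen after their values were seen.

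Lmo4, a LIM-only transcription cofactor, was at 15.9, 12.7 and 14.4 CPM in CD62L- and at 6.21, 4.19 and 7.08 CPM in CD62L+ cells, both below the naive mean of 29.8 CPM, and 3 of those 6 fits lost its call. Ikzf3, which encodes the Ikaros family factor Aiolos, was at 78.1, 80.8 and 68.5 against 48.9, 48.4 and 36.6 CPM, and its call was lost in all 6 fits that left out a library (adjusted p 0.0663 to 0.196). Mei1 had 109 counts over the CD62L- libraries and 0 in the CD62L+ libraries, at least 34.9-fold higher against a floor of 3 counts over the group, and its call was likewise lost in all 6 (adjusted p 0.0666 to 0.151).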
